A study of Homo sapiens with 3 samples.

Results

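The aminoacyl-tRNA synthetases are the enzymes that join each amino acid to its transfer RNA, and 36 of their genes were followed here across a comparison of 2 glioma clones. The 36 were taken from a list of gene symbols that was chosen with earlier results of these data known. All 36 were found among the 25006 genes that could be named on the arrays, by 41 of the 58201 probes. They fall into 20 genes of cytosolic enzymes and 16 genes of mitochondrial enzymes, the latter marked by a symbol that ends in 2. Older symbols are used, as in GARS for the gene that RefSeq now calls GARS1. The 20 cytosolic genes leaned to the U87Mut clone: their median log2 ratio, U87WT over U87Mut, came to -0.47 in FBS-free medium, -0.25 with IGF1 and -0.39 with IGF1 and OSI906, against -0.04, -0.03 and -0.16 for the 16 mitochondrial genes, although the IGF1 median turned to 0.29 when the array was centred on its median without a loess curve, a setting that also moved the median of all genes to 0.30.

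Both clones come from U-87MG, an established human glioblastoma line, stably transfected and selected with G418. U87WT 5 carries the receptor of insulin-like growth factor 1 as a fusion with green fluorescent protein (GFP-IGF1R), which can reach the nucleus, and U87Mut 5 carries GFP-IGF1R1025x-1100x-1120x, altered at 3 lysines so that it stays outside. Each clone was kept for 24 h in FBS-free medium alone, with 50 nM IGF1, or with 50 nM IGF1 and 0.5 μM of OSI906, an inhibitor of the kinase of IGF1R and of the insulin receptor that was added 1 h ahead by the study's methods (the labels disagree, with 24 h of preincubation in one and a far higher dose in another). The question of the study was what the nuclear receptor does to these cells, and the comparison made on the arrays was U87WT against U87Mut in each condition.

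There were 3 two-colour arrays, 1 for each condition, with U87WT always in Cy5 and U87Mut always in Cy3, and all of them lay on 1 slide read in 1 scan. Each genotype is 1 clone, no parental U87 sample was analysed here, and dyes were not swapped. Clone and dye therefore cannot be told apart, and neither can condition and array. Whether every cell held less of an RNA or fewer cells held it cannot be told apart either, since whole cultures were extracted. Between 50.1% and 52.8% of all probes stood well above background in both channels, no spot was saturated, and 15341 genes were well above background on every array. The number of arrays limits the precision. Among 277 probes printed on at least 5 spots, the SD of the log2 ratio between spots of the same probe was 0.05 in FBS-free medium, 0.18 with IGF1 and 0.06 with IGF1 and OSI906, with a median per probe of 0.05 on every array. All 7 markers of the U87 line (VIM, CD44, FN1, TNC, NES, SPARC and CHI3L1) were well above background. Of 9 markers of other cell types 8 had a probe that could be named. EPCAM, OLIG2, PTPRC, RBFOX3 and SYT1 were well above background on every array and GFAP, CDH1 and PECAM1 were not. Mean log2 intensities were 6.10 in OLIG2, 6.21 in PTPRC, 6.58 in SYT1, 6.84 in EPCAM and 9.04 in RBFOX3. They were 5.83 in CDH1, 5.88 in GFAP and 5.93 in PECAM1, so OLIG2 and PTPRC lay little above these. The part of other cell types in the results was not tested.

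Each synthetase recognises 1 amino acid and the transfer RNAs that carry it, so the set as a whole supplies the ribosome. Mitochondria translate their own messages and use a second set of enzymes from other nuclear genes, while GARS and KARS serve both compartments from a single gene. In the cytosol several synthetases sit in a multisynthetase complex held by the scaffold proteins AIMP1, AIMP2 and EEF1E1. When amino acids run short or the endoplasmic reticulum is stressed, the transcription factor ATF4 induces many genes of cytosolic synthetases together with amino acid transporters and biosynthetic enzymes, and it binds elements that combine a C/EBP and an ATF core. The gene for the tryptophan enzyme, WARS, is in addition a classical interferon target.

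The promoter stretches that hold the ATF4-type motif are shown first, since the ratios are set beside them further on. RefSeq windows of 300 bases (250 before and 50 after a start site, GRCh38.p14) were given for 30 of the 36 genes, in 39 windows; LARS, VARS, YARS, AARS2 and VARS2 were among the 6 without one here. The letters TGATGNAA, a core of the element that ATF4 and C/EBP proteins bind, were searched on both strands. They occurred in 7 of the 16 cytosolic genes with a window (43.8%), in 1 of the 14 mitochondrial genes (7.14%) and in 1217 of all 27305 genes with a window (4.46%). Counted over windows, that was 33.3% of the cytosolic and 3.62% of all windows. Each stretch below is written 5′ to 3′ along the gene with the match in capitals; TTGCATCA and TTTCATCA are matches on the opposite strand.
AARS, chr16:70289666-70289713, minus strand: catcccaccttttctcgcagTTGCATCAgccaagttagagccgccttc
CARS, chr11:3057398-3057445, minus strand: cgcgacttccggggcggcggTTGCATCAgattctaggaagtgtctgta
GARS, chr7:30594825-30594872, plus strand: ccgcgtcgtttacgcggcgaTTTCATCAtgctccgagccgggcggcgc
IARS, chr9:92293683-92293730, minus strand: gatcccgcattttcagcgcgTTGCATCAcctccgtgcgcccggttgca
MARS, chr12:57488044-57488091, plus strand: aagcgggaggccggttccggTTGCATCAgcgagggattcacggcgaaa
NARS, chr18:57621807-57621842, minus strand: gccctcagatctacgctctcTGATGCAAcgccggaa
TARS, chr5:33440947-33440994, plus strand: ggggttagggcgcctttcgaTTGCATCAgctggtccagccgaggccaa
YARS2, chr12:32756067-32756114, minus strand: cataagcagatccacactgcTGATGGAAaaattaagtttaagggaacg

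In 6 of the 8 genes the 8 letters were those of TTGCATCA or its reverse complement, GARS and YARS2 being the other two. The match lay within a few bases of the start site in CARS (from -2 to 6), MARS (from -4 to 4) and TARS (from 3 to 10), and farther upstream in AARS (from -187 to -180) and YARS2 (from -197 to -190). The E-box CACGTG, which reads the same on both strands, had another distribution: 1 of 16 cytosolic genes (IARS, 6.25%), 3 of 14 mitochondrial genes (CARS2, EARS2 and MARS2, 21.4%) and 8.77% of all genes. In IARS, which held both motifs, the matches did not overlap. A match describes letters only, and binding was not measured.

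**Figure D1:**
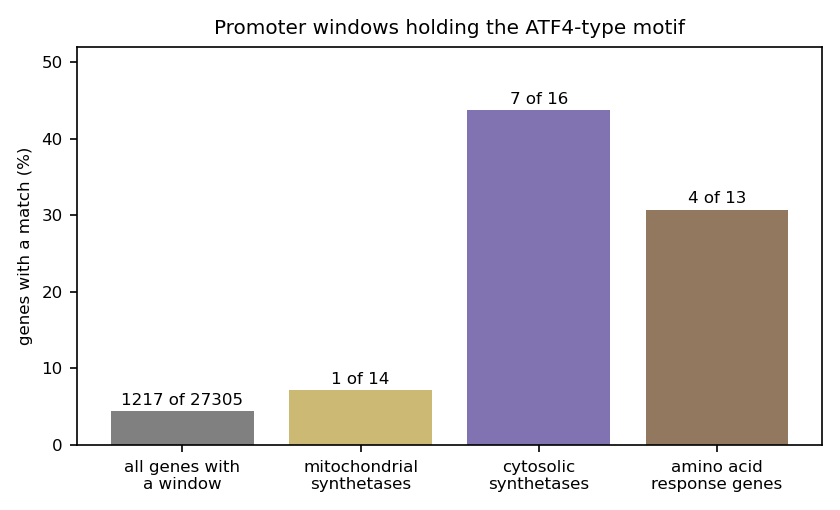
Share of genes (%) with at least 1 match to TGATGNAA, on either strand, in their RefSeq windows around the start site; the numbers over the bars are genes with a match of genes with a window. The cytosolic synthetases (7 of 16) stood at 43.8%, the mitochondrial ones (1 of 14) at 7.14%, all genes at 4.46% and the amino acid response genes (4 of 13) at 30.8%.

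Each array gives the log2 ratio of U87WT over U87Mut, where 1 unit is a 2-fold difference and a negative value means a weaker signal in U87WT. For a gene with several probes the brightest stands for it, and a gene was called by size when its ratio passed 0.5 in either direction. In FBS-free medium 8 of the 36 genes were lower in U87WT by this limit, beside 6.12% of the 15341 genes well above background, and none was higher, beside 6.37%. With IGF1, 3 were lower (background 4.72%) and 1 was higher (background 7.33%). With IGF1 and OSI906, 7 were lower (background 5.66%) and 1 was higher (background 5.74%). Every gene called on any array was cytosolic. At least 1 array gave a call for 12 of the 20 cytosolic genes and for 0 of the 16 mitochondrial ones, while 20.4% of all genes had such a call. Mitochondrial probes reached lower brightness, with mean log2 intensities of 5.81 in MARS2 and 7.12 in NARS2, although CARS2 had the highest, 14.94. The dimmest cytosolic gene, FARSB, had 7.97. With a background offset of 0 in place of 50, the mitochondrial median in FBS-free medium went from -0.04 to -0.11. The cytosolic median stayed at -0.47. The part of brightness in the class contrast was not tested. The ratio was below 0 on every array for 15 of 20 cytosolic and 6 of 16 mitochondrial genes, compared with 28.7% of all genes.

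**Figure D2:**
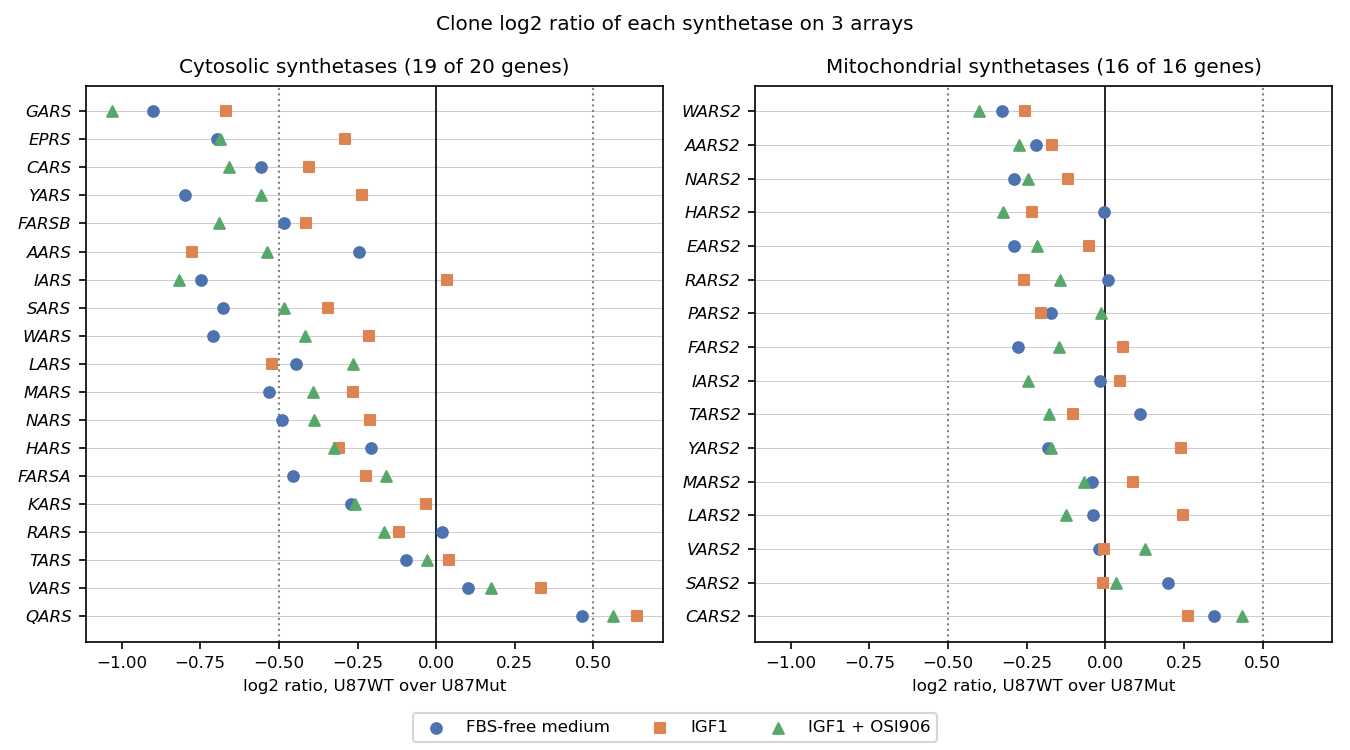
Log2 ratio of U87WT over U87Mut (x axis) of the brightest probe of each synthetase on the 3 arrays, with 19 of the 20 cytosolic genes drawn; dotted lines mark the size limit of 0.5, and genes are in order of their mean over the arrays. GARS lay past -0.5 on every array and QARS was the one gene past 0.5; all mitochondrial genes lay between the limits. Without the loess curve the cytosolic median of the IGF1 array was 0.29 in place of -0.25, and that of all genes 0.30 in place of 0.02.

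GARS (chr7:30594735-30634033), the glycine enzyme of both compartments, stood farthest toward U87Mut in the mean of the arrays, with AARS farther on the IGF1 array. Its normalized log2 intensity in U87WT was 10.24 in FBS-free medium, 10.78 with IGF1 and 10.45 with IGF1 and OSI906, and in U87Mut it was 11.14, 11.45 and 11.48 in the same order. The values of the clones did not overlap: the lowest in U87Mut was above the highest in U87WT. The share of all genes without overlap was not counted, here or for the genes below. Each clone has 1 dye and its 3 values are 3 conditions, so a lack of overlap is a description only. The log2 ratios were -0.90, -0.67 and -1.03, and GARS was the only synthetase past the limit on every array. The fit over the 3 arrays described further on gave a mean of -0.87 ± 0.08 (SE, n = 3 arrays; limma, adjusted p = 0.00856).

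Of the 8 synthetases of the multisynthetase complex, 6 were below 0 in FBS-free medium, 6 with IGF1 and 7 with IGF1 and OSI906, with median log2 ratios of -0.41, -0.19 and -0.33. Of all genes well above background, 52.2%, 46.0% and 52.3% were below 0 on these arrays. EPRS (chr1:219968600-220046505), which carries the glutamate and the proline activity in 1 chain, had log2 intensities in U87WT of 11.89, 12.18 and 11.84 in FBS-free medium, IGF1 and IGF1 with OSI906. In U87Mut they were 12.59, 12.47 and 12.53, so that the clones did not overlap. The ratios were -0.70, -0.29 and -0.69. In both the EPRS ratios and those of IARS (chr9:92210207-92293697), the isoleucine enzyme, the IGF1 array stood apart, and in IARS the gap closed there. Its log2 intensity in U87WT was 12.60, 13.10 and 12.50 and in U87Mut 13.35, 13.07 and 13.32, and the ratios were -0.75, 0.03 and -0.82.

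IARS is one of 3 synthetases with several probes that could be named, and its probes differed on the IGF1 array. The second probe gave log2 ratios of -0.77, -0.33 and -0.84 and the third gave -0.53, -1.01 and -0.18 in FBS-free medium, IGF1 and IGF1 with OSI906. All of them read the same RefSeq transcript. On the IGF1 array the value of IARS therefore ran from -1.01 to 0.03 by probe, whereas in FBS-free medium the 3 probes were all past -0.5.

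The methionine enzyme MARS (chr12:57488068-57516652) and the leucine enzyme LARS (chr5:146113034-146182650) completed the complex members called lower by size. MARS had log2 intensities of 11.18, 11.87 and 11.50 in U87WT and 11.71, 12.13 and 11.89 in U87Mut, with ratios of -0.53, -0.26 and -0.39. Its dimmer probe gave -0.33, -0.52 and -0.42, all on the same side. LARS had ratios of -0.45, -0.52 and -0.26, below 0 on every array. KARS, the lysine enzyme of both compartments, had ratios of -0.27, -0.03 and -0.26, and RARS, the arginine enzyme, 0.02, -0.12 and -0.17.

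QARS (chr3:49095932-49104757), the glutamine enzyme and also a member of the complex, was the one cytosolic gene past the limit upward. Its log2 intensity was 13.33, 13.13 and 13.26 in U87WT and 12.87, 12.49 and 12.70 in U87Mut, so that every value of U87WT was above every value of U87Mut. The log2 ratios were 0.46, 0.64 and 0.56. The mean over the arrays was 0.55 ± 0.05 (SE, n = 3 arrays; limma, adjusted p = 0.00775). Glutamine has no mitochondrial enzyme of its own among the 36 genes, since in mitochondria its transfer RNA is charged with glutamate and then converted.

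The 12 cytosolic enzymes outside the complex had median log2 ratios of -0.49, -0.27 and -0.45 in FBS-free medium, IGF1 and IGF1 with OSI906. Below 0 were 11, 10 and 11 of them, beside 52.2%, 46.0% and 52.3% of all genes. YARS (chr1:32775239-32817358), the tyrosine enzyme, had log2 intensities of 9.74, 10.41 and 10.24 in U87WT and 10.53, 10.64 and 10.79 in U87Mut, and ratios of -0.80, -0.24 and -0.56. CARS (chr11:3000929-3057423), the cysteine enzyme, had 8.84, 9.23 and 8.78 in U87WT, 9.40, 9.63 and 9.44 in U87Mut, and ratios of -0.56, -0.40 and -0.66. In both genes the clones did not overlap, and in both the IGF1 array held the smallest gap.

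SARS (chr1:109213893-109238182), the serine enzyme, which also starts the charging of the selenocysteine transfer RNA, had log2 intensities of 13.42, 13.71 and 13.55 in U87WT and 14.09, 14.05 and 14.03 in U87Mut, with ratios of -0.68, -0.34 and -0.48. Its other probes gave -1.07, -0.37 and -0.87, for a transcript annotated as non-coding, and -0.26, -0.37 and -0.25. The probes of SARS agreed in sign on every array and differed in size in FBS-free medium. NARS, the asparagine enzyme, is printed on 10 spots and gives the one direct view of the error between spots of a member. Its mean log2 ratio was -0.49 (SD 0.04 over 8 spots, 2 having been marked as outliers) in FBS-free medium, -0.21 (SD 0.05 over 10 spots) with IGF1 and -0.39 (SD 0.05 over 10 spots) with OSI906 added. Spot values ran from -0.54 to -0.43, from -0.30 to -0.14 and from -0.48 to -0.32, so that the spots of the FBS-free and IGF1 arrays did not overlap. The spots of an array share 1 hybridisation, so this spread holds no error of culture, labelling or array. It does not measure the error of a condition.

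WARS (chr14:100333790-100376327), the tryptophan enzyme, had log2 intensities of 12.43, 12.29 and 12.68 in U87WT and 13.14, 12.51 and 13.10 in U87Mut, and ratios of -0.71, -0.21 and -0.42. The single high value of U87WT, with OSI906, was above the IGF1 value of U87Mut. AARS (chr16:70252298-70289506), the alanine enzyme, showed the reverse order of conditions to most of its class. Its log2 intensities were 9.85, 9.10 and 9.87 in U87WT and 10.09, 9.88 and 10.41 in U87Mut, and its ratios were -0.24, -0.78 and -0.54, the largest gap being on the IGF1 array.

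Both subunits of the cytosolic phenylalanine enzyme were below 0 on every array. FARSB had log2 ratios of -0.48, -0.41 and -0.69 and FARSA of -0.46, -0.22 and -0.16. HARS, the histidine enzyme, had -0.21, -0.31 and -0.32. TARS, the threonine enzyme, had -0.10, 0.04 and -0.03, and VARS, the valine enzyme, had 0.10, 0.33 and 0.17. VARS and QARS were the only cytosolic genes above 0 on every array.

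**Figure D3:**
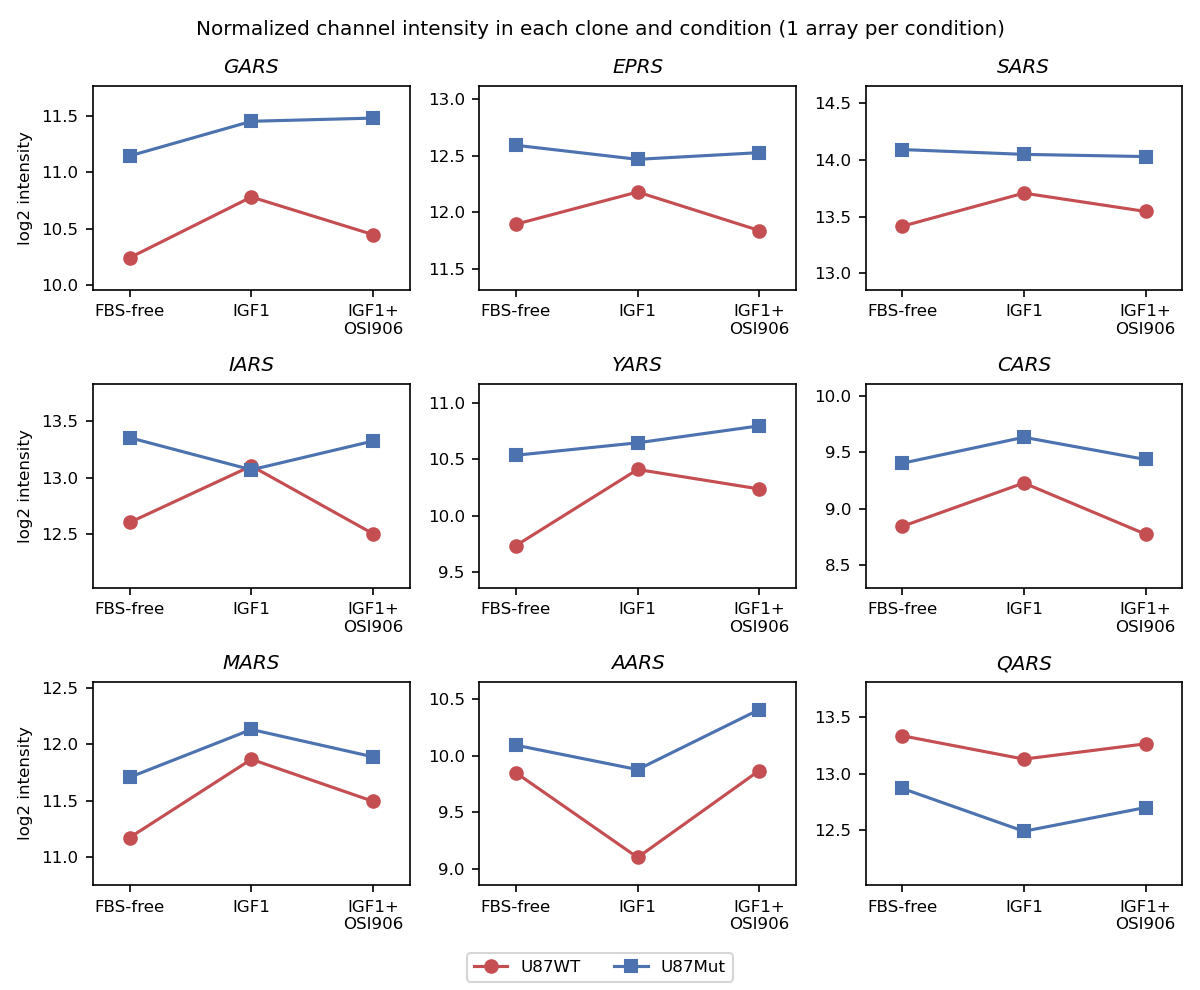
Normalized log2 channel intensity (y axis) of 9 cytosolic synthetases in U87WT and U87Mut on the FBS-free, IGF1 and IGF1 with OSI906 arrays, 1 value per point; every panel spans the same range, and levels of different genes are not comparable. U87Mut lay above U87WT in all panels except QARS and, on the IGF1 array, IARS.

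The 16 mitochondrial genes kept within a log2 ratio of -0.40 (WARS2) and 0.44 (CARS2) on every array. CARS2, the cysteine enzyme of mitochondria, was higher in U87WT on every array, with log2 ratios of 0.35, 0.26 and 0.44. Its log2 intensities were 15.15, 14.92 and 15.27 in U87WT and 14.80, 14.65 and 14.84 in U87Mut, which did not overlap. On the other side, WARS2 had ratios of -0.33, -0.26 and -0.40 and AARS2 of -0.22, -0.17 and -0.28. SARS2 had ratios of 0.20, -0.01 and 0.03, and VARS2 of -0.02, 0.00 and 0.13, without a common direction. The probe of MARS2 was not well above background on any array, so its ratios of -0.04, 0.09 and -0.07 say nothing of its RNA, and it stays in the counts of the class.

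For 17 pairs of enzymes that charge the same amino acid (EPRS serving for glutamate and proline, and FARS2 for both subunits FARSA and FARSB) the cytosolic gene had the lower ratio in 15 pairs in FBS-free medium, 13 with IGF1 and 14 with IGF1 and OSI906. This held on all 3 arrays in 12 pairs, counting MARS and MARS2, although the MARS2 probe was not well above background. The median difference of log2 ratios, cytosolic minus mitochondrial, was -0.38, -0.24 and -0.26. Cysteine gave -0.90, -0.67 and -1.09 between CARS and CARS2, the widest gap on the FBS-free and OSI906 arrays, leucine gave -0.77 between LARS and LARS2, the widest on the IGF1 array, and serine gave -0.88, -0.34 and -0.52 between SARS and SARS2. Valine went the other way on every array, with 0.12, 0.34 and 0.05 between VARS and VARS2. HARS and HARS2 lie head to head on chromosome 5 with 85 bases between them, and their ratios differed by -0.20, -0.08 and 0.00. Pairs are not replicates and carry no test. When the arrays were centred on their medians without loess, the difference between the class medians on the IGF1 array went from -0.22 to 0.033, and it was -0.43 and -0.23 on the other two arrays with loess.

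**Figure D4:**
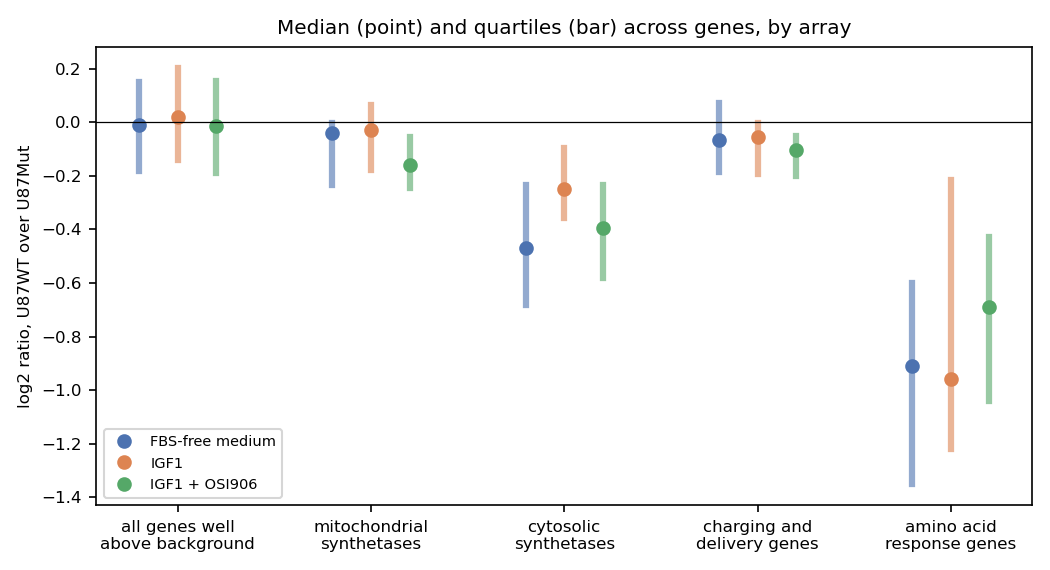
Median (point) and quartiles (bar) of the log2 ratio of U87WT over U87Mut across the genes of each list, 1 point for each array. The cytosolic synthetases had medians of -0.47, -0.25 and -0.39 and the amino acid response genes of -0.91, -0.96 and -0.69, whereas all genes well above background lay at -0.01, 0.02 and -0.01. Centred without loess, the IGF1 array gave 0.29 for the cytosolic synthetases and 0.30 for all genes.

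The 3 arrays are the only repeats of the clone comparison, and they entered 1 limma fit that tests whether the mean log2 ratio differs from 0, with Benjamini-Hochberg adjustment over 58174 probes at 5%. By this fit 12 of the 36 genes were lower in U87WT and 2 were higher, beside 4.15% and 4.28% of all probes and 10.7% and 11% of the genes well above background. The lower genes included GARS, CARS, FARSB, HARS, SARS, LARS, MARS, EPRS and NARS of the cytosol and WARS2 and AARS2 of the mitochondria. The higher ones were QARS and CARS2. Mean log2 ratios of the lower genes ran from -0.87 in GARS to -0.22 in AARS2, with adjusted p from 0.00856 to 0.0391. EPRS had -0.56 ± 0.09 (SE, adjusted p = 0.0363), CARS -0.54 ± 0.06 (adjusted p = 0.0129) and FARSB -0.53 ± 0.06 (adjusted p = 0.016).

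Several genes called by size did not pass the fit. YARS had an adjusted p of 0.0635, AARS of 0.0588, WARS of 0.0744 and the brightest probe of IARS of 0.21, their arrays differing more among themselves (SE from 0.10 to 0.18). The second probe of IARS passed with an adjusted p of 0.0372. The treatments differ between the arrays of this fit and enter its error, and dye enters its mean. The counts rested on the FBS-free and the OSI906 array: without the FBS-free array limma called 0 lower and 1 higher (20 and 3 at an unadjusted p under 0.05), without the OSI906 array 0 and 0 (18 and 2), and without the IGF1 array 18 and 2 (22 and 3), where all 3 arrays gave 21 and 3 at that unadjusted level. An offset of 0 in the background correction gave 0 calls too, with 15 lower and 2 higher at an unadjusted p under 0.05. So did the processed signals of the scanner software, with 17 and 2. The share of all genes was not counted at the unadjusted level, nor for the fits with an array left out or another processing. Those counts have no background to be read against.

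Each clone was then followed between arrays in its own channel, as the difference of normalized log2 intensity. These differences have no replicate and no test. Between spots of the same probe the SD of the log2 intensity was 0.12 to 0.24 in U87WT and 0.13 to 0.17 in U87Mut. With IGF1 the cytosolic synthetases were higher than in FBS-free medium by a median of 0.27 in U87WT, and U87Mut had a median of -0.01. The mitochondrial genes had medians of 0.08 and 0.00, and all genes of 0.01 and -0.03. The clone ratio was higher with IGF1 than in FBS-free medium in 16 of 20 cytosolic and 10 of 16 mitochondrial genes, and in 57.8% of all genes. Without loess the cytosolic medians became 0.63 in U87WT and -0.39 in U87Mut. That setting also moved all genes, whose median clone ratio was -0.17 in FBS-free medium and 0.30 with IGF1.

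In U87WT 4 synthetases were higher with IGF1 by more than 0.5, beside 2.11% of all genes: YARS2 by 0.71, MARS by 0.69, YARS by 0.67 and GARS by 0.54. In U87Mut the same genes differed by 0.29, 0.42, 0.11 and 0.31, and no synthetase was past the limit upward (background 0.854%). The dimmer probe of MARS differed from this, with -0.03 in U87WT and 0.16 in U87Mut. The tyrosine enzymes of both compartments were among the 4. AARS was the one gene lower with IGF1 by more than 0.5 in U87WT (background 2.72%), with a difference of -0.75 against -0.22 in U87Mut. WARS was the one in U87Mut (background 1.68%), with -0.63 against -0.14 in U87WT. IARS had 0.50 in U87WT, just inside the limit, and -0.28 in U87Mut; its second probe had 0.61 and 0.17, and the third had -0.02 and 0.46. Taken as the change of the clone ratio, IARS (0.78) and YARS (0.56) were past the limit upward, beside 3.36% of all genes, and AARS (-0.53) downward, beside 2.27%.

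**Figure D5:**
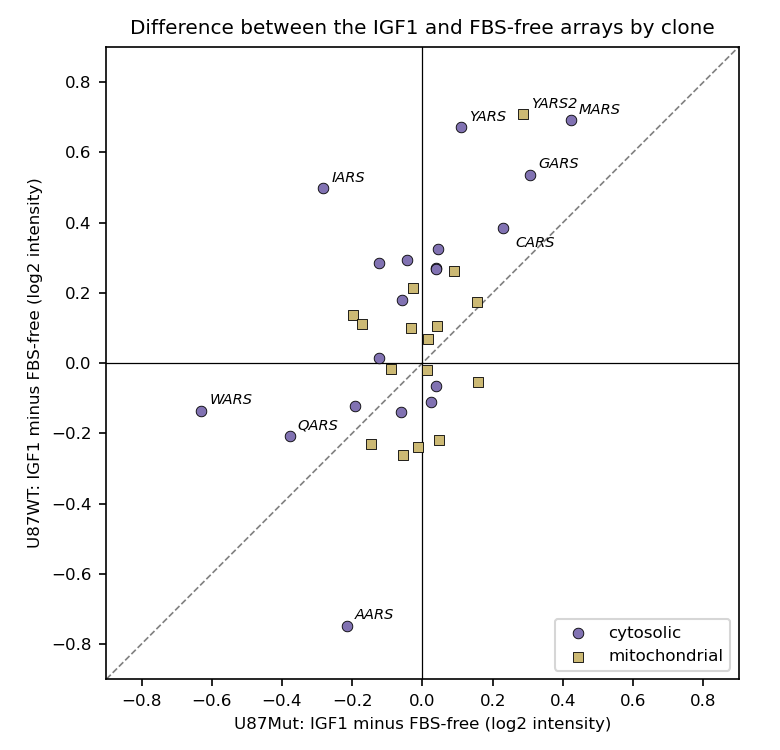
Difference of log2 intensity between the IGF1 and the FBS-free array in U87Mut (x axis) and U87WT (y axis), 1 point for each of 35 synthetases, with names for those past 0.35 in either clone; the dashed line marks equal differences. Most cytosolic genes lay above the line, with medians of 0.27 in U87WT and -0.01 in U87Mut, and AARS (-0.75 in U87WT) and WARS (-0.63 in U87Mut) lay apart. Without loess these medians were 0.63 and -0.39, and the median clone ratio of all genes was -0.17 in FBS-free medium and 0.30 with IGF1.

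With OSI906 added to IGF1, the cytosolic genes were lower than with IGF1 alone by a median of -0.17 in U87WT, and U87Mut had 0.04. The mitochondrial genes had -0.09 and 0.02. The clone ratio was lower with OSI906 than with IGF1 alone in 17 of 20 cytosolic and 11 of 16 mitochondrial genes, and in 57.2% of all genes. IARS was the one synthetase lower by more than 0.5 in U87WT (background 3.68%), with -0.60 against 0.25 in U87Mut. None was so in U87Mut (background 0.984%). The clone ratio of IARS changed by -0.85, the one change past the limit (background 3.77% downward), and none was past it upward (background 2.47%). In the other direction AARS was higher by 0.77 in U87WT (background 3.73%), and AARS by 0.53 and WARS by 0.59 in U87Mut (background 2.07%). AARS, low with IGF1 alone in both clones, was thus within 0.02 of its FBS-free level in U87WT with OSI906 and above it by 0.31 in U87Mut.

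Set directly against FBS-free medium, the array with IGF1 and OSI906 gave cytosolic medians of 0.03 in U87WT and 0.01 in U87Mut. Only FARSA passed the limit, with 0.60 in U87WT (background 2.44%) and 0.30 in U87Mut, where no gene passed (background 0.684%). YARS had 0.50 in U87WT, and GARS had the highest value of U87Mut, 0.33. No synthetase was lower by more than 0.5 in either clone (background 2.27% and 0.763%).

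Of the 3 scaffolds of the multisynthetase complex, 2 were lower in U87WT. AIMP2 had log2 ratios of -0.73, -0.52 and -0.68 in FBS-free medium, IGF1 and IGF1 with OSI906, and EEF1E1 of -0.81, -0.32 and -0.53, and both were called by the limma fit (adjusted p = 0.00756 and 0.0412). AIMP1, printed on 10 spots, had -0.23, -0.02 and -0.13 and was not called (adjusted p = 0.278). Of the 8 synthetases of the complex the fit called 4 lower (EPRS, LARS and MARS among them) and QARS higher, and of the 12 outside it 6 lower and 0 higher. Of all genes well above background the fit called 10.7% lower and 11% higher.

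Genes of the steps around charging lay near 0. There were 17 such genes, among them the mitochondrial amidotransferase QRSL1, GATB and GATC, formyltransferase MTFMT, the CCA-adding enzyme TRNT1, deacylases and elongation factors. Of these, 16 had a probe that could be named, with median log2 ratios of -0.07, -0.06 and -0.10. None passed the size limit on any array, which 20.4% of all genes did on at least 1. EEF1D has no value on the IGF1 array, where its spot was marked as an outlier.

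The 13 synthetases known as ATF4 targets in the amino acid response had median log2 ratios of -0.56, -0.26 and -0.48, and 7 of them were lower by the limma fit. The other 7 cytosolic synthetases had medians of -0.27, -0.22 and -0.26, with 3 lower and 1 higher. Of 15 further genes of that response the fit called 10 lower and 0 higher, and their medians were -0.91, -0.96 and -0.69. By size 13, 9 and 11 of them were lower on the 3 arrays and none was higher. Of all genes well above background the fit called 10.7% lower and 11% higher. By size 6.12%, 4.72% and 5.66% of those genes were lower on the 3 arrays, and 6.37%, 7.33% and 5.74% were higher. The lists were chosen with earlier results of these data known, so their counts beside all genes are a description and no independent contrast.

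The genes farthest toward U87Mut were TRIB3, a pseudokinase that feeds back on ATF4, with log2 ratios of -1.86, -1.70 and -1.38, and SLC7A11, the cystine transporter, with -1.81, -1.69 and -1.45. The leucine transporter SLC7A5 had -1.52, -1.16 and -1.34, and SLC3A2, the partner chain of both transporters, had -1.09, -1.14 and -0.98. The glutathione-degrading CHAC1 had -1.68, -1.52 and -0.69. All 5 were lower by the limma fit, with adjusted p from 0.00319 to 0.0306. DDIT3 (-1.18, -1.21 and -0.73), SESN2 (-1.16, -0.96 and -0.55), ATF3 (-0.91, -1.23 and -1.10) and VLDLR (-0.90, -0.53 and -0.84) were called lower as well.

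Of the amino acid biosynthesis genes of the list, 3 had their smallest gap between the clones on the IGF1 array. ASNS, asparagine synthetase, had log2 ratios of -0.60, -0.04 and -0.51 in FBS-free medium, IGF1 and IGF1 with OSI906, and PSAT1, of serine synthesis, had -0.74, 0.01 and -0.52. PHGDH, the first enzyme of serine synthesis, had -0.60, -0.13 and -0.34. These 3 did not pass the fit (adjusted p = 0.157, 0.21 and 0.113). SHMT2, which links serine and glycine, had -0.48, -0.35 and -0.28, with the smallest gap on the OSI906 array, and was called lower (adjusted p = 0.0223). The RNA of ATF4 itself had ratios of -0.52, -0.24 and 0.13 and was not called (adjusted p = 0.451).

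Beside WARS, 8 interferon-induced genes were read. The limma fit called IFIT1 (0.85, 0.78 and 0.45) and ISG15 (0.41, 0.23 and 0.33) higher in U87WT, and 0 of the 8 lower. Of all genes well above background the fit called 11% higher and 10.7% lower. WARS had ratios below 0 on every array. IRF1 had -0.62, -0.65 and -0.12 and was not called.

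The ratios were last set beside the promoter letters shown at the start. The 7 cytosolic genes with TGATGNAA in a window (AARS, CARS, GARS, IARS, MARS, NARS and TARS) had median log2 ratios of -0.53, -0.26 and -0.54 in FBS-free medium, IGF1 and IGF1 with OSI906. The 9 with a window and no match had -0.46, -0.22 and -0.32, and 7, 8 and 8 of them were below 0. Of all genes 52.2%, 46.0% and 52.3% were below 0. The difference between IGF1 and FBS-free medium in U87WT had a median of 0.38 in the genes with a match, from -0.75 in AARS to 0.69 in MARS, and of -0.06 in those without, which ran from -0.21 to 0.29. In U87Mut the medians were 0.04 and -0.06. The 4 cytosolic genes without a window had a median of 0.35 in U87WT, from -0.14 in LARS to 0.67 in YARS, and of 0.07 in U87Mut. Whether they hold the motif is not known here, and their U87WT median was near that of the genes with a match. TARS held the same TTGCATCA as AARS, CARS, IARS and MARS and was the gene of the group with ratios near 0. EPRS, SARS and WARS, all past -0.5 in FBS-free medium, had no match in their windows. YARS2, the mitochondrial gene with a match, had the highest U87WT difference of the 36 (0.71), and ratios of -0.18, 0.24 and -0.17. The groups are small and were compared without a test.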

How the data were processed

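Total RNA of the 2 clones was hybridised on 3 Agilent SurePrint G3 arrays. The intensity values deposited are the median spot and local background brightness of each channel from Agilent Feature Extraction 12.0.3.1, without normalization; per the file headers the same files hold processed signals with a log10 ratio. The authors also deposited log2 ratios made with limma. Both served as alternatives. The members and gene lists were chosen with earlier results of these data known.

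The spots marked non-uniform (384 on the FBS-free, 572 on the IGF1 and 5 on the OSI906 array) were kept out of the normexp background fit (offset 50). After removal of 2075 control spots, loess was applied within arrays and Aquantile between them, spots marked as outliers (95, 117 and 95) had weight 0 and were dropped, and each probe took the mean of its spots. R (4.3.3), limma (3.58.1) and data.table (1.17.8) were used. Genes were named by RefSeq accession for 34892 of 36770 probes (GRCh38.p14).

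Members are named in full, apart from what is not reported here, when past 0.5 on an array or between arrays, called by limma at 5%, or among the 5 highest and 5 lowest means. In simulated data with 58174 features the limma step called 36 of 100 features shifted by 0.5, 73 of 100 shifted by 1 and 0 others. All other features were centred on 0 with independent errors, whereas the real fit called 4.15% of probes lower and 4.28% higher. The simulated rates therefore need not hold for these arrays, where treatment and dye are shared by all probes. The alternatives were other background fits and offsets (20, 0, or no correction), median in place of loess, the scanner signals, the deposited ratios, the mean of all probes, scale, quantile or median scaling between arrays, a limit of 0.5 SD, a filter on dim probes, and each array left out. Of the lists, 2 genes are not reported here by name and stay in the counts.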

Additional observations from a re-analysis of the deposited data

Results flagged for a closer look

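Among the brightest probes of the synthetases, that of IARS had opposite directions in the 2 clones and a change of the clone ratio past 0.5. This does not cover the other probes, of which one of SARS changed by 0.68 in U87WT and -0.03 in U87Mut with IGF1. From FBS-free medium to IGF1 the log2 intensity of IARS changed by 0.50 in U87WT and by -0.28 in U87Mut, so that the log2 ratio changed by 0.782. From IGF1 to IGF1 with OSI906 it changed by -0.60 and 0.25, and the ratio by -0.853. With 1 array for each condition this difference between the clones was not tested. The second probe of the gene gave ratio changes of 0.45 and -0.51, and the third gave -0.48 and 0.83.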

How the results depend on the processing

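No paired analysis was possible because each condition has 1 array and the labels number no replicates; the clone ratio itself pairs both clones within an array. Counts of genes lower and higher past the limit were 8 and 0 in FBS-free medium, 3 and 1 with IGF1, and 7 and 1 with OSI906. With a limit of 0.5 SD of each array they became 23 and 3, 20 and 5, and 28 and 4. That limit is smaller, the SD of the ratios of all probes being 0.23, 0.24 and 0.22. The share of all genes past the limit was not counted under this or the other alternatives. These counts therefore have no background beside them. Median centring in place of loess moved the median of all genes to -0.17, 0.30 and 0.05; it gave 18 lower genes in FBS-free medium, 0 lower and 8 higher with IGF1, and 4 lower and 2 higher with OSI906. On the IGF1 array, the background fit on all spots and the deposited ratios each gave 8 lower and 2 higher, and an offset of 0 gave 2 higher; scale normalization gave 1 higher in FBS-free medium. Median centring gave cytosolic medians of -0.73, 0.29 and -0.24, mitochondrial medians of -0.31 and 0.25 in FBS-free medium and IGF1, a reversed class difference of 0.033 with IGF1 and one of -0.13 with OSI906. In FBS-free medium the mitochondrial median was -0.11 and the class difference -0.36 with an offset of 0, -0.10 and -0.37 without background correction, and -0.11 and -0.35 with the scanner signals. Cytosolic medians between arrays under median centring were 0.63 (U87WT) and -0.39 (U87Mut) for IGF1, and 0.23 (U87Mut) for OSI906. The limma counts, 12 lower and 2 higher, became 4 and 1 with the background fit on all spots, 5 and 1 with the deposited ratios, and 0 and 0 with an offset of 0, median centring (3 and 2 at an unadjusted p under 0.05) or the scanner signals. Leaving out an array gave 0 to 18 lower and 0 to 2 higher. The share of all genes called by limma under these settings was not counted. The cause of these shifts was not tested. The other 149 summary values moved by less than the spread between spots, or little in the case of counts. Sign was checked only for the class differences, and the spread was wide on the IGF1 array (SD 0.18). There the mitochondrial median went from -0.03 to -0.19 with the deposited ratios and to -0.15 with the background fit on all spots. The cytosolic median went from -0.25 to -0.32 and -0.33. The 20 single ratios past 0.5 kept their sign under 9 alternatives, and all but 6 (median centring) and 1 (mean of all probes) kept their side of the limit. Among the values of single genes 92 lost a call, 16 gained one and 314 moved by more than the spread between spots, some across 0: under median centring the IGF1 ratio of EPRS went from -0.29 to 0.29 and that of HARS from -0.31 to 0.13.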
